A study of Mus musculus with 6 samples.

Results

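Interferon-stimulated genes are the transcripts that cells raise after type I, type II or type III interferon binds its receptor, and 54 of them were followed here in CD8+ T cells, the cytotoxic lymphocytes, with and without Nae1. The members were taken from a written list of gene symbols (55 names, with Ifih1 repeated). A member was kept where its symbol was in the deposited expression table with a mean of at least 10 over the 6 libraries. Of the 54, 53 were in the table of 18288 genes, 52 reached the mean of 10 and 51 passed the filter for testing. Oas1g was not analysed here. Rsad2, with a mean of 11.0, was the member just inside the limit and Ifi44, with a mean of 7.05, the one outside it.

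The series compares CD8+ T cells from mice labelled Nae1T-KO, a Nae1 knockout by its name, with those from mice labelled Nae1WT, all activated in culture and collected on day 2. There were 3 biological replicates of each and 6 libraries in all. The labels do not give the Cre driver, the deleted exons, the strain, age or sex of the mice or the activating agent, and they are silent on whether each replicate was its own mouse. Each group held libraries of both sexes, so no group came from a single mouse, and the p-values cover only the spread between these samples. Nae1 encodes a subunit of the enzyme that activates NEDD8, a ubiquitin-like protein whose attachment to cullins switches on a large class of ubiquitin ligases. Nae1 had 390.3, 338 and 367 normalized counts (reads divided by 1 size factor per library) in Nae1T-KO replicates 1 to 3 and 1601, 1806 and 1882 in Nae1WT replicates 1 to 3. It was lower in every Nae1T-KO library, with a log2 fold change (Nae1T-KO minus Nae1WT) of -2.27 ± 0.09 (SE) (limma, adjusted p = 5.03e-07). Values of later genes follow the same order of replicates, Nae1T-KO first.

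Type I interferon signals through IFNAR1 and IFNAR2 to the kinases JAK1 and TYK2, and the resulting complex, which holds STAT2 and IRF9, binds a DNA element called ISRE. Interferon gamma, which activated CD8+ T cells themselves secrete, signals through IFNGR1 and IFNGR2 to JAK1 and JAK2 and acts on a DNA element called GAS. IRF1 and IRF7 are transcription factors that are themselves induced and carry the response further. The products range from OAS, IFIT and MX proteins, which act on viral RNA or viral particles, to the GBP and IRG GTPases, which attack the vacuoles of intracellular microbes.

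The promoters of several members are shown because the ISRE is the sequence that many of them share. RefSeq start sites of GRCm38.p6, the same assembly as mm10, were matched for 40 of the 52 measured members. Its core (GAAA, any 2 bases, GAAA) was searched on both strands of the 250 bases before each start, and overlapping matches were kept. It was present in 18 of the 40 members (45.0%) and in 3.24% of 10057 tested genes with a promoter in the same table. The GAS core TTCNNNGAA, which reads the same on both strands, was in 10 of the 40 (25.0%) and in 7.21% of the tested genes. In the lines below, capitals mark the ISRE core and each run is the stretch just before the start site, on the strand of the gene.
Isg15 (minus strand, chr4:156200819-156200938): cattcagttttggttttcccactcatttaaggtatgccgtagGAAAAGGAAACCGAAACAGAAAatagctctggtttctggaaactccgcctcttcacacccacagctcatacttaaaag
Oas3 (minus strand, chr5:120777660-120777779): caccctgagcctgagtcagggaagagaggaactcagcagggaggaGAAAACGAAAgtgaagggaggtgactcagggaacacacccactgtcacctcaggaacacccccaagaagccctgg
Oas1a (minus strand, chr5:120907526-120907645): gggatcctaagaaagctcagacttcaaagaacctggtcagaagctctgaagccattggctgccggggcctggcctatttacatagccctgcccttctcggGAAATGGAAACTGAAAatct
Irgm1 (minus strand, chr11:48871421-48871540): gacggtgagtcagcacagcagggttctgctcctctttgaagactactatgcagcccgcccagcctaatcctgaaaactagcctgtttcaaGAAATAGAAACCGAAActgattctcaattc
Gbp2 (plus strand, chr3:142620543-142620662): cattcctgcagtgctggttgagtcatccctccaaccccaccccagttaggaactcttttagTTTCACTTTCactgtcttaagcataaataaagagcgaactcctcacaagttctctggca
Igtp (plus strand, chr11:58199436-58199555): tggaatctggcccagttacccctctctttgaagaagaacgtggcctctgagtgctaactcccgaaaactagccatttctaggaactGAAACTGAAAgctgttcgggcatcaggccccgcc
Isg15, Oas1a and Irgm1 carry overlapping copies of the core, and in Gbp2 it lies on the opposite strand. The core was in 7 of 8 GBP and IRG promoters, in 3 of 4 IFIT promoters and in 2 of 4 OAS promoters. It was in 1 of 4 IRF and STAT, 1 of 3 ISG15 group, 2 of 7 direct antiviral and 0 of 2 sensor promoters. Schlafens had it in 1 of 3 and the remaining members in 1 of 5. Among members with a matched promoter it was in 8 of 14 that rose in Nae1T-KO and in 10 of 26 that did not pass or were not tested.

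Of the 51 tested members, 19 rose in Nae1T-KO and 0 fell (limma, adjusted p under 0.05 over all 13819 tested genes). That is 37.3% of the tested members, while 6.53% of all tested genes were called higher and 6.18% were called lower. The members were chosen with earlier results of these data known, so these shares describe the list and are not an independent test of it. At an unadjusted p under 0.05, 26 members were higher and 0 were lower, and edgeR and DESeq2 on reads recovered from the normalized counts also called 0 members lower. The fold change was positive for 45 members and negative for 6. The median log2 fold change was 0.354 over the members and -0.006 over all tested genes. Every Nae1T-KO library lay above every Nae1WT library for 25 members (49.0%), against 16.7% of all tested genes, and the reverse order was seen for 0 members, against 17.0% of all tested genes. The members Mx2 and Ifit3b reached the test only through their Nae1T-KO libraries. Among the 49 others 18 were called.

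**Figure D1:**
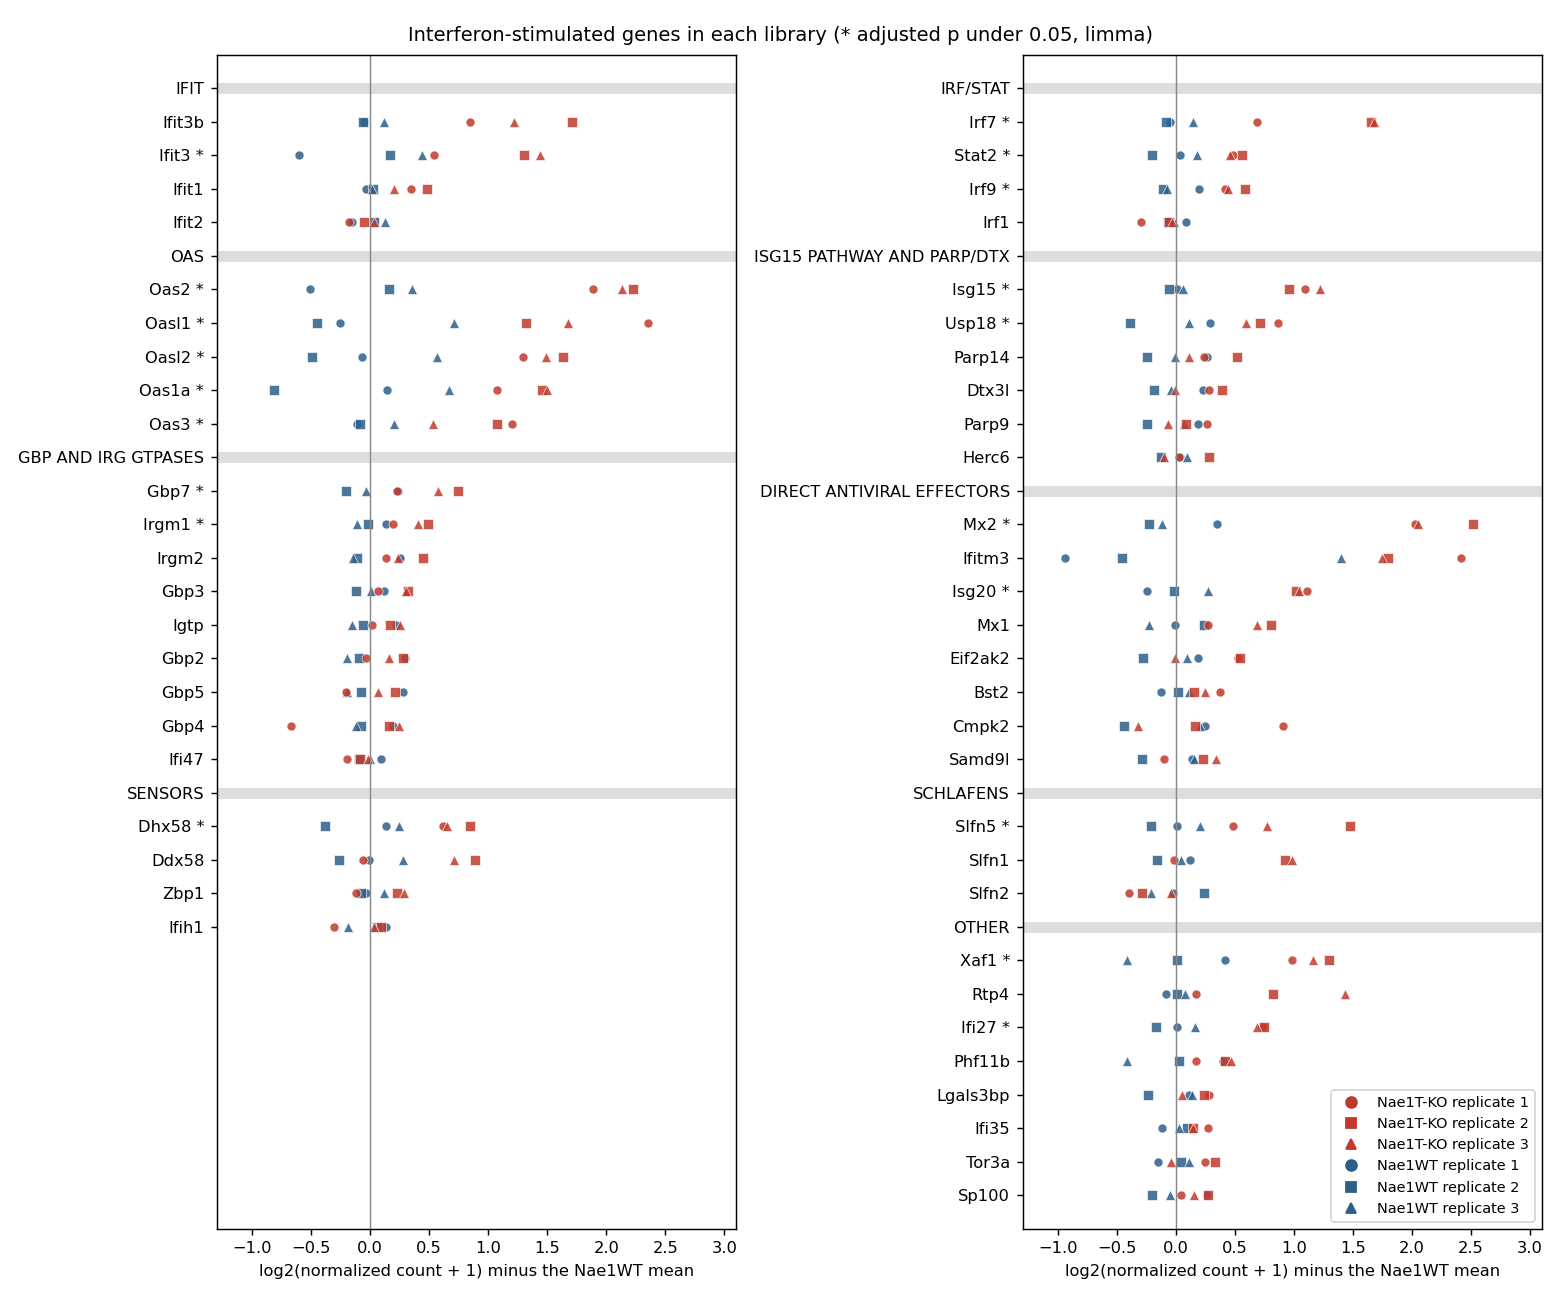
Each row is a member and each point a library, placed by log2(normalized count + 1) minus the mean of the 3 Nae1WT libraries; red marks Nae1T-KO, blue Nae1WT, and the shape gives the replicate. Members with an asterisk passed the test. All 5 OAS rows separate the groups, while most GBP and IRG rows overlap, and Nae1T-KO replicate 1 is the lowest of its group for 32 of the 51 members.

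Members at lower levels were called more often. The members were split, after the values were seen, at their median of 314 normalized counts, taken over all 6 libraries so that neither group sets the split. Of the 25 below it 15 rose, with a median log2 fold change of 0.94, where 4.96% of all tested genes under 314 were called higher. Of the 26 at or above it the 4 that rose were Irf9, Stat2, Gbp7 and Irgm1, with a median over the 26 of 0.17, where 7.86% of all tested genes at or above 314 were called higher. The lower set holds Mx2 and Ifit3b, which were tested only through their Nae1T-KO libraries.

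**Figure D2:**
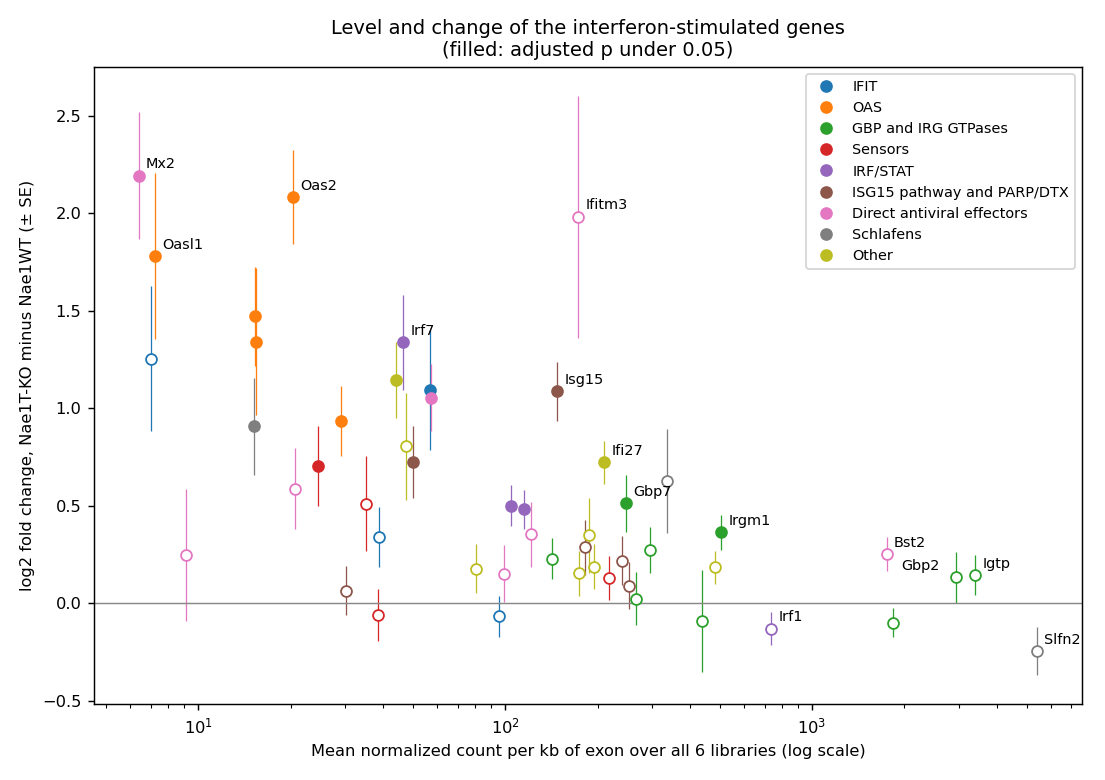
The x axis (log scale) is the mean normalized count per kb of exon over the 6 libraries and the y axis the log2 fold change, Nae1T-KO minus Nae1WT, with its standard error; colours are role groups and filled points passed the test. Mx2 and the OAS genes sit at the upper left, and Gbp2, Igtp and Slfn2 lie at the right with log2 fold changes of 0.13, 0.14 and -0.25.

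Every tested OAS member rose. OAS1, OAS2 and OAS3 proteins make 2',5'-oligoadenylates when they meet double-stranded RNA and so activate RNase L, and the OAS-like genes encode relatives. All 5 tested genes of this family passed and did not overlap between groups, with a median log2 fold change of 1.47 (0.94 to 2.08). Their levels were low, 3.11 to 19.9 per kb in Nae1WT. All 5 had a mean under 314 normalized counts, and 4.96% of all tested genes under 314 were called higher. Every Nae1T-KO library lay above every Nae1WT library for 16.7% of all tested genes.

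Oas2 had 127, 161 and 151 normalized counts across the Nae1T-KO replicates, and Nae1WT replicates had 23.3, 37.6 and 43.4. Its log2 fold change was 2.08 ± 0.24 (SE), 4.24-fold, with 147 ± 17.4 against 34.8 ± 10.3 (SD, n = 3; limma, adjusted p = 0.000771). The lowest Nae1T-KO library was far above the highest Nae1WT library, and the call held in all 18 alternative fits. Oasl2 had 125, 159 and 143 against 47.9, 35.5 and 75.4, a log2 fold change of 1.47 ± 0.25 (SE; limma, adjusted p = 0.00538), and it too passed in all 18.

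Oasl1 counted 42.5, 20.3 and 26.3 against 6.14, 5.23 and 12.9, a log2 fold change of 1.78 ± 0.43 (SE; limma, adjusted p = 0.0225). Nae1T-KO replicate 1 was the highest, and 5 to 38 reads stood behind these values. The call ended without Nae1T-KO replicate 1 (limma, adjusted p = 0.0825), Nae1WT replicate 1 (0.0560) or Nae1WT replicate 2 (0.0705), with 0.0120 to 0.123 over 17 alternatives. For Oas1a the counts were 33.6, 44.1 and 45.4 against 17.2, 8.36 and 25.1, a log2 fold change of 1.34 ± 0.38 (SE; limma, adjusted p = 0.0420).

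The Oas1a call was the least firm of the family. It ended without Nae1T-KO replicate 1 (limma, adjusted p = 0.0662), 2 (0.116) or 3 (0.0945), without Nae1WT replicate 1 (0.0705) or 2 (0.111), and in the fit that adds sex, with 0.0271 to 0.160 over 17 alternatives. Its transcripts share 57.6% of their 50-base stretches with other genes, chiefly Oas1g and Oas1b, so reads of these copies may have been split between them. Oas3, at 323, 295 and 202 against 129, 132 and 161, had a log2 fold change of 0.94 (limma, adjusted p = 0.00917). In GRCm38 Oas2 lies at chr5:120730333-120749886, beside Oas3 at chr5:120753098-120777684, and Oasl2 lies elsewhere on the same chromosome at chr5:114896926-114912245.

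**Figure D3:**
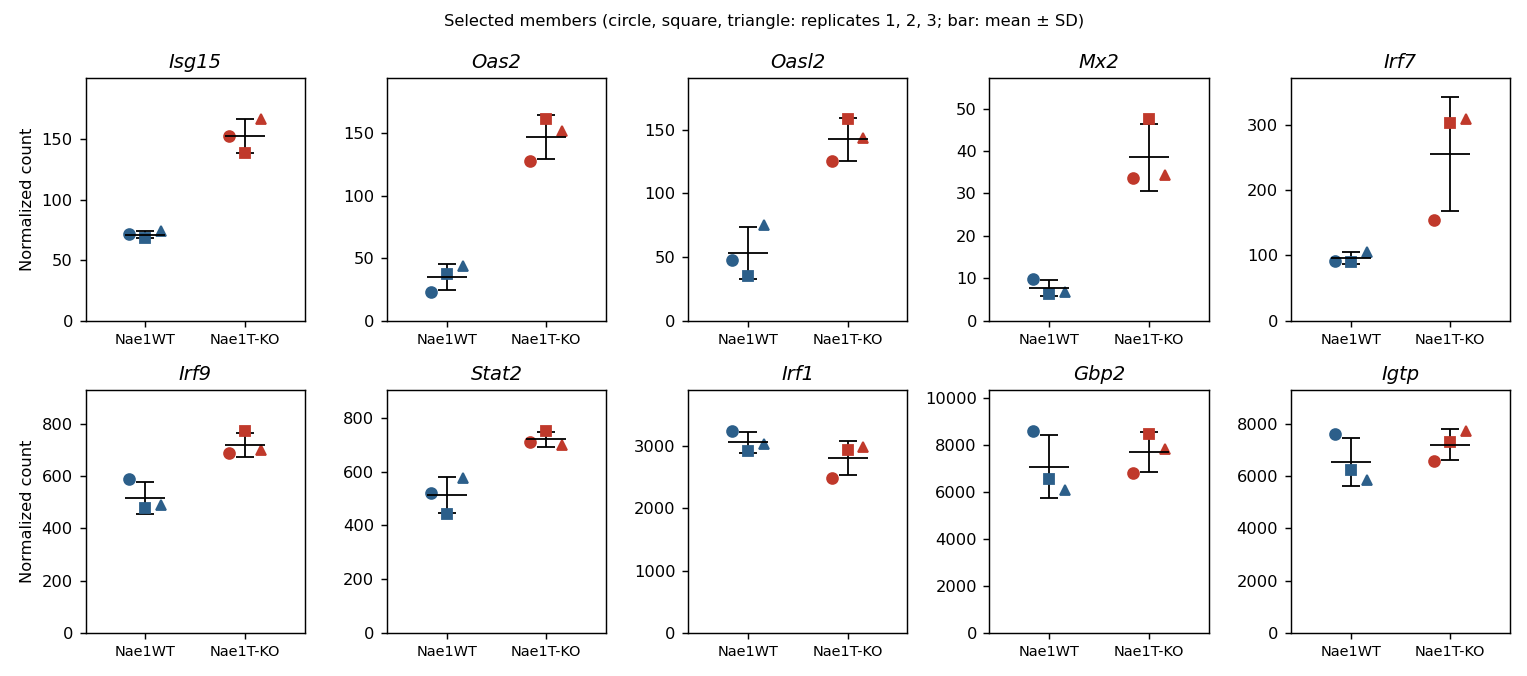
Normalized counts of 10 members in each library (circle, square and triangle for replicates 1, 2 and 3), with the group mean and SD as a black bar; every axis starts at 0. Isg15, Oas2, Oasl2, Mx2, Irf7, Irf9 and Stat2 separate the groups, and Irf1, Gbp2 and Igtp overlap.

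The ISGF3 genes and Irf7 rose and Irf1 did not pass. STAT2 and IRF9 are the subunits that give the type I interferon complex its ISRE binding, and IRF7 is the inducible factor that amplifies interferon genes. Irf7 had 154, 302 and 309 normalized counts across Nae1T-KO replicates and 92.1, 89.9 and 106 in Nae1WT. The groups did not overlap, but Nae1T-KO replicate 1 was well below the other two of its group. The log2 fold change was 1.34 ± 0.25 (SE; limma, adjusted p = 0.00838), called in all 18 alternatives.

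Stat2 changed less and more evenly, with 712, 753 and 699.8 against 521, 441 and 576, a log2 fold change of 0.50 ± 0.10 (SE; limma, adjusted p = 0.0126). Irf9 had 689, 774 and 699 against 588, 477 and 488, a log2 fold change of 0.48 ± 0.10 (SE; limma, adjusted p = 0.0130). Both were about 1.4-fold higher with no overlap. The Irf9 call ended narrowly without Nae1T-KO replicate 2 (limma, adjusted p = 0.0506), Nae1WT replicate 2 (0.0562) or Nae1WT replicate 3 (0.0553), with 0.00121 to 0.0731 over 18 alternatives. Irf1, a factor strongly induced by interferon gamma, had 2491, 2941 and 2978 against 3243, 2914 and 3026, and its log2 fold change was -0.13 (limma, adjusted p = 0.332; 95% interval -0.31 to 0.05). Per kb of exon it stood at 769.9 in Nae1WT, against 25.4 for Irf7.

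In the ISG15 group, Isg15 and Usp18 rose and the PARP, DTX and HERC genes did not pass. ISG15 is a ubiquitin-like modifier, as NEDD8 is, USP18 is the protease that removes it and also restrains the type I receptor, and HERC6 is the mouse ligase that attaches it. Isg15 had 152, 138 and 167 normalized counts across Nae1T-KO against 71.2, 67.9 and 73.9. Replicates of each group lay close together and the groups were far apart, with a log2 fold change of 1.09 ± 0.15 (SE; limma, adjusted p = 0.00192) that passed in all 18 alternatives. The gene lies at chr4:156199424-156200818, directly after the printed promoter.

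Usp18 had 191, 172 and 159 against 128, 79.4 and 113, a log2 fold change of 0.72 ± 0.19 (SE; limma, adjusted p = 0.0299). Its groups did not overlap, but the call ended without Nae1T-KO replicate 1 (limma, adjusted p = 0.0905), Nae1T-KO replicate 2 (0.0767), Nae1WT replicate 2 (0.0926) or Nae1WT replicate 3 (0.0602) and in the fit that adds sex, with 0.00905 to 0.111 over 18 alternatives. Herc6 and the ADP-ribosylation genes Parp9, Parp14 and Dtx3l overlapped between groups, with log2 fold changes of 0.06 to 0.29. Parp9 and Dtx3l are transcribed from opposite strands, and 9.4% and 8.0% of their exonic bases lie under each other's exons.

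The direct antiviral effectors had 2 of 8 tested members higher, Mx2 and Isg20, where 6.53% of all tested genes were called higher. MX2 is a dynamin-like GTPase that blocks viral particles and ISG20 is an exonuclease. Mx2 had 33.6, 47.6 and 34.3 normalized counts against 9.82, 6.27 and 6.85 in Nae1WT, and Isg20 had 149.9, 140.1 and 142 against 57.7, 67.9 and 83.0. Mx2 was therefore near the lower limit of measurement in Nae1WT, with 6 to 54 reads per library over both groups. The log2 fold changes were 2.19 ± 0.33 (SE; limma, adjusted p = 0.00256) for Mx2 and 1.06 ± 0.17 (SE; limma, adjusted p = 0.00420) for Isg20.

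Its paralogue Mx1 did not overlap between groups but did not pass, at 74.9, 108 and 100 against 61.4, 73.2 and 52.5 (log2 fold change 0.59; limma, adjusted p = 0.0896). Ifitm3, which hinders viral entry, was more variable. It had 235, 153 and 147 against 22.1, 31.4 and 116, a log2 fold change of 1.98 ± 0.62 (SE) with adjusted p = 0.0952 in limma. Nae1WT replicate 3 alone was close to the Nae1T-KO libraries, and without it the log2 fold change was 2.68 (limma, adjusted p = 0.000897, and 0.000897 to 0.529 over 18 alternatives). With all libraries kept and sex as a covariate it was 1.57 and also passed (limma, adjusted p = 0.0342). Bst2, which tethers budding virus, had a log2 fold change of 0.25 (limma, adjusted p = 0.0782), and Eif2ak2, Samd9l and Cmpk2 had 0.35, 0.15 and 0.25. Eif2ak2, the RNA-activated kinase PKR, passed without Nae1T-KO replicate 3 (log2 fold change 0.534; limma, adjusted p = 0.0296). Rsad2, the gene of viperin, was at 30.2 in Nae1T-KO replicate 1 and at 5.05 to 9.14 in the other libraries, too low to be tested.

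IFIT genes, whose products bind foreign 5' ends of RNA, moved gene by gene, and 1 of 4 passed. Of all tested genes, 6.53% were called higher. Ifit3 had 88.4, 151 and 166 normalized counts across Nae1T-KO replicates against 39.3, 67.9 and 82.2. The gap between the lowest Nae1T-KO and the highest Nae1WT library was small, and the log2 fold change was 1.10 ± 0.31 (SE; limma, adjusted p = 0.0461). The call ended without Nae1T-KO replicate 2 (limma, adjusted p = 0.138) or 3 (0.112), without Nae1WT replicate 1 (0.0995) or 2 (0.103) and in the fit that adds sex, with 0.00429 to 0.230 over 17 alternatives. Its near-identical copy Ifit3b, at 14.5, 27.3 and 19.2 against 7.37, 7.32 and 8.37, was the member just outside the threshold (log2 fold change 1.26; limma, adjusted p = 0.0502), while Gbp7, at 0.0498, was just inside. Ifit3b passed in 4 of its 12 alternatives, namely edgeR, a pseudocount of 5 and total-count and upper-quartile scaling (adjusted p 0.0395 to 0.119 over the 12).

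Ifit3 shares 51.2% of its 50-base stretches with Ifit3b, so reads may have been split between them. The copies also share their promoter, shown for both with the ISRE core in capitals, which lies on the opposite strand and so reads TTTC, any 2 bases, TTTC.
Ifit3 (plus strand, chr19:34583279-34583528): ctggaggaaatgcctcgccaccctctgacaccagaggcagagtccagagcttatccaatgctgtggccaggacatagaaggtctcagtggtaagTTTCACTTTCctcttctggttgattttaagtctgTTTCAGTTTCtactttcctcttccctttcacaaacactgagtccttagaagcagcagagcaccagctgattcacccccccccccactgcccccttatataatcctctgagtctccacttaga
Ifit3b (plus strand, chr19:34607707-34607956): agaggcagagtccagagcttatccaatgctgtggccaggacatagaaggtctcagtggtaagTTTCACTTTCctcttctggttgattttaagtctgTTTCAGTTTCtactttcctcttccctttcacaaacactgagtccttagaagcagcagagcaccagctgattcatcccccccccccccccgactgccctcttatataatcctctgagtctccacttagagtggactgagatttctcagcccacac
The longest run common to both stretches was 169 bases and held both matches. Ifit1 had 115, 127 and 104 against 88.4, 92.0 and 91.4, with no overlap but a log2 fold change of 0.34 (limma, adjusted p = 0.170). Ifit2 was the highest IFIT gene per kb of exon, at 98.0 in Nae1WT, and overlapped between groups with a log2 fold change of -0.07 (limma, adjusted p = 0.718).

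The RNA and DNA sensors had 1 of 4 members higher, beside 6.53% of all tested genes. Dhx58 encodes LGP2, which tunes the RIG-I-like receptors, and it had 92.8, 109 and 94.9 normalized counts against 66.3, 46.0 and 71.6. The groups did not overlap and the log2 fold change was 0.70 ± 0.21 (SE; limma, adjusted p = 0.0487), a call that ended when any single library was left out (limma, adjusted p = 0.0838, 0.146 and 0.0750 without Nae1T-KO replicates 1, 2 and 3, and 0.0687, 0.158 and 0.0576 without Nae1WT replicates 1, 2 and 3). It also ended without the filter on low values and in the fit that adds sex, with 0.0444 to 0.260 over 17 alternatives. Ddx58, the gene of RIG-I, had 371 and 326 in Nae1T-KO replicates 2 and 3 but 191 in replicate 1, within the Nae1WT range of 166 to 242. It did not pass (log2 fold change 0.51; limma, adjusted p = 0.197), except without Nae1T-KO replicate 1 (0.798; limma, adjusted p = 0.0217, and 0.0217 to 0.46 over its alternatives). Ifih1, the gene of MDA5, had a log2 fold change of -0.06 and Zbp1, a sensor of Z-form nucleic acid, one of 0.13, both with overlapping groups.

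The GBP and IRG GTPases, which interferon gamma strongly induces, were abundant and mostly overlapped between groups. Their Nae1WT level was 131 to 3236 per kb of exon, with a median of 443, against a median of 8.30 for the OAS genes. Of 9 tested, 2 rose, 0 fell and 8 overlapped, with a median log2 fold change of 0.14 (-0.10 to 0.51). All 9 had a mean above 314 normalized counts, and 7.86% of all tested genes at or above 314 were called higher. Of all tested genes, 16.7% had every Nae1T-KO library above every Nae1WT library and 17.0% the reverse. At an unadjusted p under 0.05, 3 were higher and 0 were lower.

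Gbp2 had 6799, 8477 and 7800.5 normalized counts across Nae1T-KO replicates against 8591, 6529 and 6089, and its log2 fold change was 0.13 (limma, adjusted p = 0.546; 95% interval -0.16 to 0.42). Igtp, the gene of this group with the highest level per kb of exon, had 6583, 7291 and 7724 against 7584, 6211 and 5836 (0.14; limma, adjusted p = 0.384; 95% interval -0.08 to 0.37). Nae1WT replicate 1 was above every Nae1T-KO library for Gbp2 and above replicates 1 and 2 for Igtp. Both promoters shown above carry the ISRE core.

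Irgm1, a regulatory IRG protein, rose with no overlap, at 2937, 3596 and 3404 against 2820.4, 2526 and 2372 (log2 fold change 0.36 ± 0.09, SE; limma, adjusted p = 0.0283). The call ended without Nae1T-KO replicate 2 (limma, adjusted p = 0.0903) or 3 (0.0565) and without Nae1WT replicate 2 (0.0920) or 3 (0.111), with 0.00495 to 0.138 over 18 alternatives. Gbp7 was called although its groups overlapped, with 1322, 1893 and 1685 against 1333, 985 and 1107 (0.51 ± 0.14, SE; limma, adjusted p = 0.0498).

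The Gbp7 call held in 7 of 18 alternatives (adjusted p 0.00356 to 0.153) and ended without Nae1T-KO replicate 2 (limma, adjusted p = 0.138) or 3 (0.138), without Nae1WT replicate 2 (0.153) or 3 (0.114), with each other scaling, with a pseudocount of 0.5, without the filter and with sex as a covariate. Gbp4 differed most within a group, at 2075 in Nae1T-KO replicate 1 against 3685 and 3925 in replicates 2 and 3. Its log2 fold change was -0.09 over all libraries and 0.202 without that replicate (limma, adjusted p = 0.246, and 0.246 to 0.992 over 18 alternatives). Gbp3, Gbp5, Irgm2 and Ifi47 had log2 fold changes of 0.23, 0.02, 0.27 and -0.10.

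Schlafens are regulators of T cell quiescence and of viral translation, and 1 of 3 rose, beside 6.53% of all tested genes. Slfn5 had 90.6, 181 and 111 normalized counts against 65.1, 55.4 and 74.6, without overlap (log2 fold change 0.91 ± 0.25, SE; limma, adjusted p = 0.0382). The call ended without Nae1T-KO replicate 2 (limma, adjusted p = 0.117) or 3 (0.0535), without Nae1WT replicate 1 (0.0806), 2 (0.124) or 3 (0.0612) and in the fit that adds sex, with 0.00703 to 0.266 over 17 alternatives. Slfn1, at 905 and 946 in Nae1T-KO replicates 2 and 3, was at 473 in replicate 1, inside the Nae1WT range of 428 to 519. It passed without that replicate (log2 fold change 0.951; limma, adjusted p = 0.00219) and in DESeq2, but not otherwise (0.63; limma, adjusted p = 0.178, with 0.00219 to 0.409 over 18 alternatives). Slfn2, the member with the highest level per kb of exon, had 7335, 7960.4 and 9393 against 9551, 11455 and 8349 (log2 fold change -0.25; limma, adjusted p = 0.224; 95% interval -0.52 to 0.03).

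Of the 8 other tested members, Xaf1 and Ifi27 rose, where 6.53% of all tested genes were called higher. XAF1 opposes the apoptosis inhibitor XIAP, and IFI27 is a mitochondrial protein. Xaf1 had 253, 313 and 285 normalized counts against 169, 128 and 95.2, a log2 fold change of 1.14 ± 0.19 (SE; limma, adjusted p = 0.00517) that passed in all 18 alternatives. Ifi27 had 386, 390.4 and 374 against 233, 206 and 259.6 with no overlap, and its log2 fold change was 0.72 ± 0.11 (SE; limma, adjusted p = 0.00325).

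In RefSeq the span of Ifi27 (chr12:103434189-103440245) lies inside that of Ifi27l2a (chr12:103433873-103443680). No source used here names the read counter or its use of strand, so reads of these neighbours may not be fully separated. Rtp4 was at 79.4 in Nae1T-KO replicate 1, just above the Nae1WT range of 66.3 to 74.6, and at 125 and 192 in replicates 2 and 3 (log2 fold change 0.80; limma, adjusted p = 0.0819). It passed without Nae1T-KO replicate 1 (limma, adjusted p = 0.0152) and in DESeq2, with 0.0152 to 0.274 over its alternatives. Ifi35, Lgals3bp, Phf11b, Sp100 and Tor3a had log2 fold changes of 0.15 to 0.35 and did not pass, and Phf11b shares 47.0% of its 50-base stretches with other genes, chiefly Phf11a and Phf11c.

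The libraries of a group were not alike. Relative to the Nae1WT mean, the median over the 51 members was 0.27, 0.52 and 0.41 in Nae1T-KO replicates 1 to 3 and 0.09, -0.10 and 0.08 in Nae1WT replicates 1 to 3 (log2 scale). For the OAS genes these medians were 1.29, 1.45 and 1.5 against -0.12, -0.45 and 0.57, and for the GBP and IRG genes 0.02, 0.28 and 0.25 against 0.22, -0.09 and -0.12. The sensors and schlafens of Nae1T-KO replicate 1 were at -0.09 and -0.02, within the range of the Nae1WT libraries (-0.17 to 0.18 and -0.16 to 0.04). Nae1T-KO replicate 2 was the highest of its group for 26 of the 51 members, and Nae1WT replicate 2 the lowest of its group for 29.

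**Figure D4:**
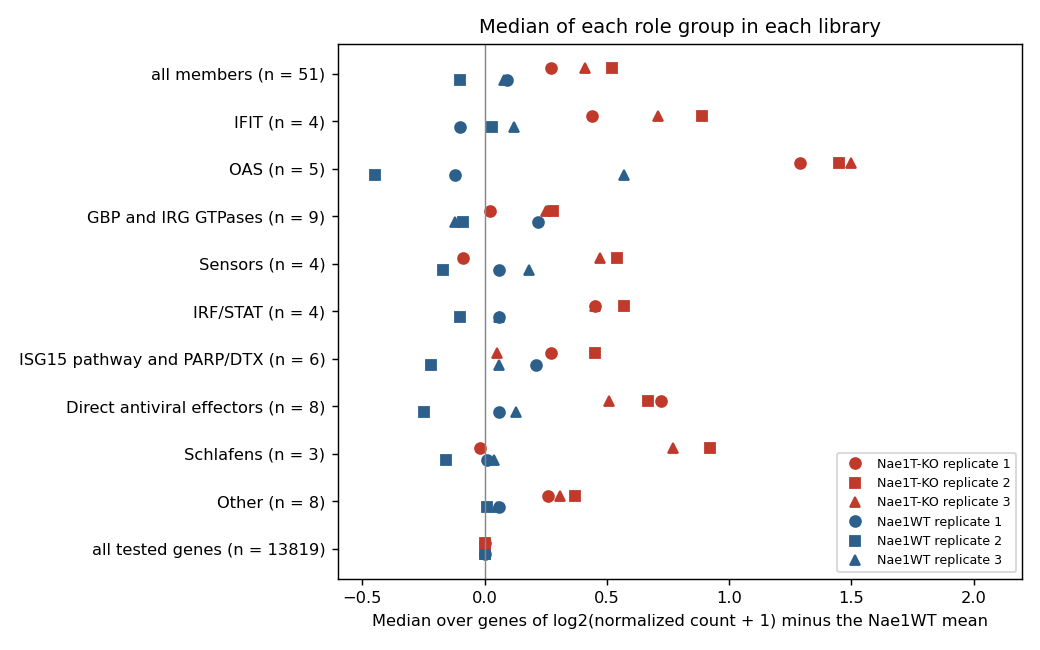
Each point is the median over the tested genes of a role group in 1 library, as log2(normalized count + 1) minus the Nae1WT mean; red is Nae1T-KO, blue Nae1WT, and shapes are replicates. Every red point is above every blue one for the OAS, IFIT, IRF/STAT, direct antiviral and other groups but not for the GBP and IRG, sensor, ISG15 and schlafen groups, and the median of all 13819 genes stays at 0.

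The count of members called depended on single libraries. It was 10 of 49 tested without Nae1T-KO replicate 2 and 10 of 51 without Nae1WT replicate 2, when 3.67% and 3.44% of all tested genes were called higher. With any other library left out it was 13 to 17, when 4.12% to 6.77% of all tested genes were called higher. The members called in all alternatives fitted were Isg15, Oas2, Oasl2, Irf7, Mx2 and Xaf1, 6 of the 19. Mx2 was fitted in 13 alternatives and the others in 18. Mx2 could not be tested when a Nae1T-KO library was left out or under a stricter filter of at least 100 normalized counts. Nor could it be tested with the library-name number as a block on 4 libraries, so its call was not tried in those fits. Libraries also differed in sex, read from Xist and Y-linked transcripts, and 2 Nae1T-KO libraries (replicates 1 and 2) and 1 Nae1WT library (replicate 3) were female. In the 4 pairs of a Nae1T-KO and a Nae1WT library of 1 sex, the members' median log2 difference ran from 0.27 to 0.53. With sex as a covariate 14 members were called higher, 13 of them among the 19, when 5.59% of all tested genes were called higher.

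All 7 CD8+ T cell markers in the table, of 8 listed, were abundant, with Cd8a at 6079.7 to 8186 normalized counts, and Cd4 was at 20.1 to 119. Of the 7, Cd3g, a chain of the T cell receptor complex, and Prf1, the gene of perforin, were lower in Nae1T-KO (log2 fold changes -0.51 and -0.38; limma, adjusted p = 0.00365 and 0.0131), and the other 5 did not pass. Markers of other cells were low and uneven. The 6 myeloid markers in the table, of 12 listed, had sums of 131, 256 and 187 against 113, 72.1 and 86.0, so each Nae1T-KO sum was the higher, with Cd14 and Itgam at 0 in a Nae1WT library. Sums of 9 of 12 dendritic cell markers were 822, 1592 and 777 against 653, 583 and 875, those of 9 of 11 B cell markers 217, 622 and 292 against 248, 244 and 365, and those of 8 erythroid markers 376, 2058 and 203 against 145, 319 and 654. Nae1T-KO replicate 2 was the highest for all 4 lists. Among these 4 lists limma called Xcr1 higher and Zbtb46 lower, both on the dendritic list. Xcr1, at 10.1, 17.6 and 15.1 against 4.91, 2.09 and 3.81, reached the test only through its Nae1T-KO libraries. At an unadjusted p under 0.05 in limma were 3 of 4 tested myeloid, 5 of 7 dendritic, 1 of 7 B cell and 0 of 5 erythroid markers. DESeq2 called 2 myeloid and 4 dendritic markers, and edgeR 0 and 2. The tested myeloid markers had log2 fold changes of 0.58 to 1.35. H2-Aa, H2-Ab1 and H2-Eb1 had 1.17, 1.23 and 1.38, while Zbtb46 and Ccr9 had -1.03 and -0.01. The part of such cells in the rise of the members was not tested, and in bulk samples a change in cell makeup and a change in RNA per cell cannot be told apart.

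Upstream of the members the picture was mixed. Ifng, the ligand made by these cells, had 15810, 10693 and 13059 normalized counts across Nae1T-KO replicates against 17549.7, 30771 and 28566. Every Nae1T-KO library was lower, but the log2 fold change of -0.93 ± 0.25 (SE) did not pass (limma, adjusted p = 0.0674, with 0.00350 to 0.190 over 18 alternatives). It passed in 4 of the 18, among them the fit without Nae1WT replicate 1 (-1.19; limma, adjusted p = 0.00350), the stricter filter and DESeq2. Of the 10 ligands listed, Ifng was the only one tested, and Ifnb1 was not analysed here.

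The interferon gamma receptor chain Ifngr1 rose, with 945, 1361 and 1397 against 861, 729 and 879 (log2 fold change 0.57 ± 0.15, SE; limma, adjusted p = 0.0351). That call ended without Nae1T-KO replicate 2 (limma, adjusted p = 0.120) or 3 (0.0909) and without Nae1WT replicate 1 (0.0711), 2 (0.122) or 3 (0.0575), with 0.00099 to 0.122 over 18 alternatives. Ifnar1, Ifnar2, Ifngr2, Jak1, Tyk2 and Irf3 had log2 fold changes of -0.24, 0.18, 0.35, 0.07, -0.10 and -0.14, and none passed.

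**Figure D5:**
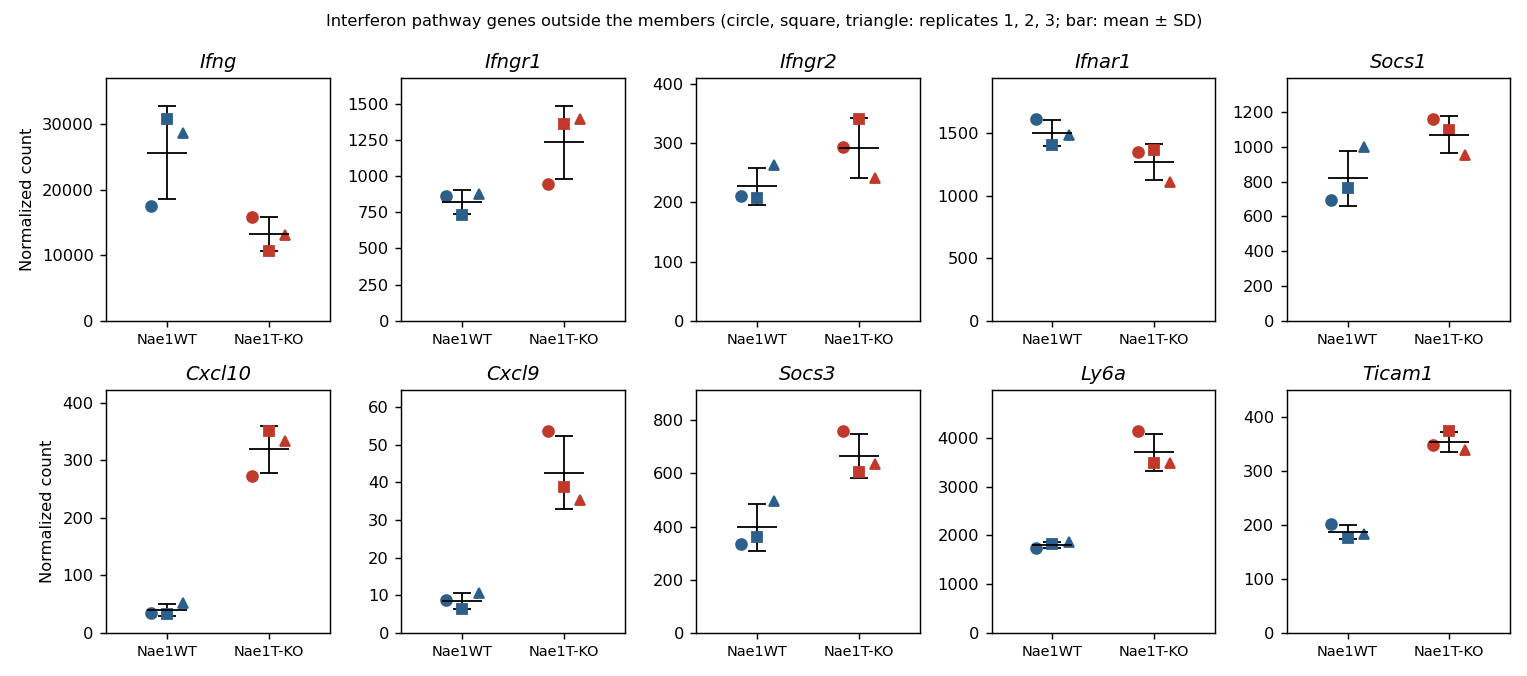
Normalized counts of 10 interferon pathway genes that are not members, by library (circle, square and triangle for replicates 1, 2 and 3), with group mean and SD as a black bar and axes from 0. Cxcl10, Cxcl9, Socs3, Ly6a, Ticam1 and Ifngr1 separate upward in Nae1T-KO, Ifng and Ifnar1 lie lower without passing the test, and Ifngr2 and Socs1 did not pass either.

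Among 97 measured interferon pathway genes outside the members, 18 rose (18.6%), 5 fell (5.15%) and 74 did not pass, with a median log2 fold change of 0.18. Of all tested genes 6.53% were called higher and 6.18% lower, so the share that fell was near the background. The list of 121 genes, also chosen with earlier results of these data known, holds ligands, receptors, kinases, sensing adaptors, negative regulators, chemokines and other inducible genes. Its largest rise was in Cxcl10, a ligand of CXCR3, at 273, 352 and 333 normalized counts against 34.4, 32.4 and 51.8 (log2 fold change 3.01 ± 0.20, SE; limma, adjusted p = 3.58e-05). The related chemokine gene Cxcl9 was at 53.7, 38.8 and 35.3 against 8.59, 6.27 and 10.7 (2.2 ± 0.33, SE; limma, adjusted p = 0.00248).

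Ly6a, the gene of Sca-1, had 4145, 3480.1 and 3488 against 1735, 1831 and 1858, and its groups were narrow and far apart (1.03 ± 0.08, SE; limma, adjusted p = 0.000112). Ticam1, the TLR3 adaptor TRIF, had 347, 374 and 337 against 201, 176 and 182 (0.92 ± 0.11, SE; limma, adjusted p = 0.000920). Ifitm2, Oas1b, Rnf213, Socs3 and Ifi27l2a rose by log2 fold changes of 0.82, 0.80, 0.80, 0.76 and 0.73. SOCS3 is a feedback inhibitor of cytokine receptors, and its relative Socs1, which restrains JAK kinases below the interferon receptors, had 0.40 (limma, adjusted p = 0.0750) and passed without Nae1WT replicate 3 (0.551; limma, adjusted p = 0.0180) and in DESeq2, with 0.0180 to 0.481 over 18 alternatives. The Oas1b call ended without Nae1T-KO replicate 2 (limma, adjusted p = 0.0940), Nae1WT replicate 2 (0.0773) or Nae1WT replicate 3 (0.0530), with 0.0135 to 0.276 over 17 alternatives.

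The 5 that fell, named after their values were seen, were Epsti1, Sting1, Il10rb, Rnaseh2b and Irf8, with log2 fold changes of -0.57, -0.43, -0.37, -0.36 and -0.35. STING is the adaptor of cytosolic DNA sensing, and Sting1 had 2152, 2045 and 2001 normalized counts against 2893, 2743 and 2697 (limma, adjusted p = 0.00307). Without Nae1WT replicate 3 the calls for the other 4 ended (limma, adjusted p = 0.0553, 0.111, 0.0810 and 0.0585), leaving 1 lower gene, and without Nae1WT replicate 2 there were 3.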

How the data were processed

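RNA-seq libraries of 3 Nae1T-KO and 3 Nae1WT samples were compared. The authors deposited 1 signal value per gene and library, reads divided by a size factor (normalized counts). Per the submitters' processing notes, bcl2fastq, HISAT2, DESeq2 1.42.0 and mm10 were used; the read counter is not given in the sources used, nor is its use of strand. Recovered reads totalled 15628300 to 25444700 per library, less certainly for Nae1T-KO replicate 3. Counting error is covered by the spread between replicates.

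In R 4.3.3, limma 3.58.1 (trend, robust) was fitted to log2(normalized count + 1) of the 13819 genes with at least 10 in at least 3 libraries, so fold changes of low genes are understated. Benjamini-Hochberg adjusted p under 0.05 was a call. Alternatives were edgeR 4.0.16 and DESeq2 on recovered reads, other scalings, filters and pseudocounts, a sex covariate, replicate blocks and leaving out each library. The fit was tested on simulated data. Levels between genes are per kb of GENCODE exon length.

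The members and all lists were chosen with earlier results of these data known. All measured members were accounted for, by role. Other pathway genes were named where they are core signalling genes or among the 8 called genes with the largest fold changes. One gene of the pathway list is counted but not reported here.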

Additional observations from a re-analysis of the deposited data

How the results depend on the processing

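The members called lower stayed at 0 in all alternatives. Members called higher numbered 19, 9 at an adjusted p under 0.01, and 10 to 17 with 1 library left out. Other pathway genes called higher numbered 18, and 9 at 0.01; those called lower numbered 5, then 1 at 0.01 and 1 to 5 with 1 library left out. All called genes numbered 1757, then 585 at 0.01 and 842 to 1767 with 1 library left out. Log2 fold changes of 6 uncalled members changed sign. With sex as a covariate they were 0.00866 for Ifih1, 0.0248 for Gbp4 and -0.00131 for Herc6. With 1 library left out they ran from -0.155 to 0.0599 for Ifih1, -0.258 to 0.202 for Gbp4, -0.0754 to 0.161 for Gbp5, -0.0352 to 0.182 for Parp9, -0.0411 to 0.148 for Herc6 and -0.0805 to 0.531 for Cmpk2. The causes were not tested. Members with few reads, such as Oasl1 and Mx2, are limited by depth.

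Whether the replicate numbers pair the samples was not settled. Deviations from the group mean correlated at -0.13, -0.177 and -0.266 between libraries with the same title number. For those sharing the number in the library name the correlations were -0.128 and -0.266. Each of these pairs held libraries of both sexes, so the correlations cannot decide the question. With the title number as a replicate block, 14 members, 968 genes in all and 3 lower pathway genes, all among the 5, were called. With the number in the library names as the block, on 4 libraries, these were 6, 314 and 2, with 8 pathway genes higher and Herc6 at -0.0238. Of the 5 lower pathway genes 0 were among those 2, which were Lgals3 and Ifng (log2 fold change -1.04; limma, adjusted p = 0.00406).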
